A study of Bos grunniens and Bos grunniens x Bos taurus with 6 samples.

Results

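MYBPH, MYBPC1 and MYBPC2 encode the myosin-binding proteins H, slow-type C and fast-type C of skeletal muscle. They are 3 of the 31044 genes in a long-read table from longissimus dorsi, the long muscle along the back. For each symbol, the gene identifier with most pooled reads in lines bearing that symbol was taken, and all of its transcripts were summed in each library. The members were proposed with earlier results of these data known, so their differences between the groups are values of a fit over all genes and not independent evidence.

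The study set yak (Bos grunniens, n = 3 libraries) beside cattle-yak, labelled as the hybrid Bos grunniens x Bos taurus (n = 3). No treatment or time point is given, and the sources used here do not give age, sex, feeding or the direction of the hybrid cross. The labels do not state whether the 3 libraries of a group are 3 animals, and the p-values therefore measure only how these libraries spread, which may be technical in part.

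Myosin-binding proteins are built of immunoglobulin and fibronectin domains and lie in regular stripes along the thick filament. The C proteins bind myosin and titin at one end and reach towards myosin heads and actin at the other, and so tune how fast and how readily heads attach. Slow-type C is made in slow and in fast fibres and in many spliced forms, fast-type C is made in fast fibres, and H protein is a shorter relative that lacks the front domains of the C proteins.

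The libraries held between 2350851 and 2769106 counted reads, so 1 read corresponds to under 1 CPM, the count scaled to a common library total, and every pair of libraries differed by more than sampling noise. Markers of skeletal muscle were abundant in every library. The summed level of 9 muscle fibre markers was 186743 to 198826 CPM in yak and 142650 to 149279 CPM in cattle-yak, so the groups did not overlap. The largest part of this sum was the identifier named ACTA1, and that name rests on 1.57% of its reads. Its mean was 113198 CPM in yak and 71952 CPM in cattle-yak after the scaling given below. The sum without ACTA1 was not tested. Of these 9, desmin (DES) was called higher and myoglobin (MB), MYH2 and ACTA1 lower, and 5 did not pass. The names MYH7, MYH2 and DES rest on 44.3%, 53.8% and 61.2% of the reads of their identifiers. Among all genes tested, 6.45% were called higher and 6.18% lower. Without yak 2 or yak 3 the calls of ACTA1 (adjusted p 0.0999 and 0.0568 by edgeR) and DES (0.0891 and 0.0552) were lost, as were that of ACTA1 without cattle-yak 1 (0.0832) and that of MYH2 without yak 2 (0.0697). In this bulk tissue, fewer cells of a type and less RNA per cell cannot be told apart.

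MYBPH was scarce in yak muscle and plentiful in cattle-yak muscle. It had 75, 135 and 34 reads in the yak libraries and 1371, 954 and 1871 reads in the cattle-yak libraries. After TMM scaling, which sets libraries on a common scale, these were 32.6, 57.8 and 15.0 CPM in yak and 532, 376 and 673 CPM in cattle-yak. Every cattle-yak library was above every yak library, and the lowest of them was 6.50 times the highest yak library. Within a group the yak libraries spread more than the cattle-yak libraries, with the highest 3.85 times the lowest in yak and 1.79 times in cattle-yak.

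The mean of MYBPH was 35.1 ± 21.5 CPM in yak and 527 ± 149 CPM in cattle-yak (mean ± SD, n = 3 libraries per group), a 15.0-fold difference of means. The fitted difference on the log2 scale (the log2 fold change of cattle-yak over yak, written as log2 difference below) was 3.90 ± 0.49 (SE; approximate 95% interval 2.94 to 4.87; edgeR quasi-likelihood test, adjusted p = 0.00474). The interval is a normal approximation, which is too narrow for so few libraries. In this fit 12.6% of the 7504 genes tested were called, 6.45% higher and 6.18% lower in cattle-yak, and the groups did not overlap for 33% of them. By log2 difference MYBPH stood 19th from the top of these genes. With library size alone as the scale, 658 genes were called higher and 304 lower, against 484 and 464 with TMM scaling, and the median log2 difference of all genes was 0.171 instead of 0.024. The direction of all 3 members was the same under both scales.

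MYBPC1 went the other way. This gene, whose mutations cause congenital joint contractures in people, had 11960, 13072 and 12350 reads in yak and 7029, 6242 and 6627 reads in cattle-yak. These were 5200, 5594 and 5452 CPM in yak and 2726, 2457 and 2385 CPM in cattle-yak. The 2 ranges were far apart and narrow, with the highest library 1.08 times the lowest in yak and 1.14 times in cattle-yak.

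The mean level of MYBPC1 fell from 5415 ± 200 CPM to 2523 ± 180 CPM (mean ± SD, n = 3 libraries per group), so that yak stood 2.15-fold above cattle-yak. The log2 difference was -1.10 ± 0.15 (SE; edgeR, adjusted p = 0.000507). The summed muscle fibre markers, of which the identifier named ACTA1 was the largest part, were also lower in cattle-yak, as given above. Their part in the fall of MYBPC1 was not tested.

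MYBPC2, the fast-type gene, had 13913, 12093 and 10096 reads in yak and 10514, 8857 and 12499 reads in cattle-yak. In CPM these were 6049, 5175 and 4457 in yak and 4078, 3487 and 4498 in cattle-yak. The groups overlapped, because cattle-yak 3 was above yak 3. The means were 5227 ± 797 and 4021 ± 508 CPM (mean ± SD, n = 3 libraries per group). The log2 difference of -0.38 ± 0.17 (SE; 95% interval -0.71 to -0.05 by the same normal approximation) did not pass the threshold over all genes (edgeR, adjusted p = 0.166).

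**Figure D1:**
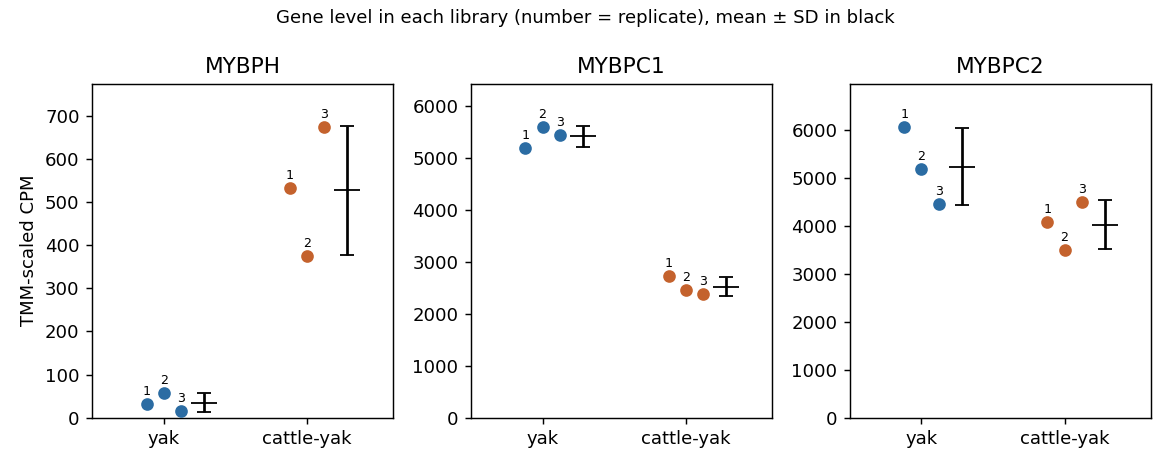
TMM-scaled CPM of MYBPH, MYBPC1 and MYBPC2, 1 panel a gene with its own axis from 0; coloured points are libraries with their replicate number, and the black line and bar beside them are the mean and SD of 3 libraries. MYBPH lies between 15.0 and 57.8 CPM in yak and between 376 and 673 CPM in cattle-yak, MYBPC1 is lower in every cattle-yak library, and the MYBPC2 groups overlap.

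Taken within each library, where no scaling between libraries enters, MYBPC1 was a smaller part of the myosin-binding protein reads in cattle-yak. It held 46.1%, 51.7% and 54.9% of the reads of the 3 genes in yak and 37.2%, 38.9% and 31.6% in cattle-yak. Its mean share was 50.9% ± 4.47 in yak and 35.9% ± 3.83 in cattle-yak (mean ± SD, n = 3 libraries per group), 15.0 points lower. A two-sided exact permutation test gave p = 0.1, which is the smallest value that 3 against 3 libraries allow. The share of MYBPH was 0.325% ± 0.194 in yak and 7.37% ± 1.49 in cattle-yak.

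The count of MYBPC1 reads for each MYBPC2 read, slow-type against fast-type, was 0.860, 1.08 and 1.22 in yak and 0.669, 0.705 and 0.530 in cattle-yak. Every cattle-yak library was below every yak library (exact permutation p = 0.1). Transcript length does not enter this table, so a ratio of reads between genes is not a ratio of molecules of protein or of RNA mass.

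By symbol, few or no reads were found for the remaining relatives. No line of the table carried the symbol of MYBPC3, the heart form, and MYBPHL, an H-like protein of the atrium, had 13 reads in all, with 0, 5 and 3 in yak and 2, 3 and 0 in cattle-yak. TPM1, TPM3, CSRP3 and TRIM55, from the muscle lists used below, also matched no identifier by symbol. A missing symbol therefore does not show that a gene had no reads. Of 6 heart muscle genes, 2 were matched and 1 was tested: MYH6, whose name rests on 55.4% of the reads of its identifier, was called higher at 6.23 ± 0.60 CPM in yak and 14.5 ± 6.17 CPM in cattle-yak (log2 difference 1.21 ± 0.37, SE; edgeR, adjusted p = 0.0453). That call was lost in 5 of 6 fits that left out 1 library, all but the one without cattle-yak 1 (adjusted p up to 0.163, without cattle-yak 2), and with DESeq2 (0.0757) and limma-voom (0.0938). With edgeR it was also lost without robust dispersion (0.0527) and with no filter on low counts (0.0545). The heart troponin TNNT2 had 4 reads in each group.

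Other identifiers also carried the symbols. A second MYBPC1 identifier, TALONG000108557, held 2795 reads, with 632, 434 and 425 in yak and 436, 455 and 413 in cattle-yak, and its log2 difference was -0.38 ± 0.18 (SE; edgeR, adjusted p = 0.193). A second MYBPC2 identifier, ENSBGRG00000018106, held 1542 reads and had a log2 difference of 0.04 ± 0.16 (SE; edgeR, adjusted p = 0.891). The remaining 2 MYBPC1 identifiers had 26 and 5 reads and the remaining 3 of MYBPC2 had 31, 27 and 9. Reads of near-identical loci could be split among these identifiers by the authors' counting.

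The rise of MYBPH was seen in each of its main transcripts. Its identifier, ENSBGRG00000026302, held 91 transcripts and 4440 reads, and 20, 32 and 14 of them had a read in the yak libraries against 67, 53 and 72 in the cattle-yak libraries. Of the 91, 65 had under 20 reads over all 6 libraries, and 19, holding 88.0% of the reads, passed the filter on low counts. These 19 were all called higher, with log2 differences from 3.13 to 6.83. They passed that filter largely through the cattle-yak libraries, so their number says little beyond the gene's own difference. Of all 15804 transcripts tested in the table, 18.5% were called, 9.63% higher and 8.86% lower (1522 and 1400 transcripts; 1879 and 1084 with library size alone).

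Only 4 transcripts held at least 5% of MYBPH reads in either group, 59.2% of the reads together, and each matched the wild yak (Bos mutus) model of myosin-binding protein H. The leading one, TALONT000356284, held 34.7%, 20.7% and 38.2% of the gene's yak reads and 27.9%, 24.8% and 27.0% in cattle-yak. The next, TALONT000356283, held 14.7%, 14.8% and 14.7% in yak and 13.9%, 11.3% and 14.8% in cattle-yak. For all 4 transcripts the shares of the groups overlapped, with 244 yak reads of the gene in all. The usage test, which asks whether the transcripts of a gene change in proportion to each other, gave an adjusted p of 0.993 (edgeR diffSpliceDGE) for MYBPH. By this test 8.29% of 1821 genes were called.

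MYBPC1 was the most finely divided of the 3 genes. Its identifier, ENSBGRG00000001036, held 1151 transcripts, 888 of them with under 20 reads, and 57280 reads. More of them were seen in each yak library (759, 823 and 825) than in each cattle-yak library (632, 561 and 590), with fewer reads of the gene in cattle-yak. Of 136 tested transcripts, with 83.3% of the reads, 54 were called lower (beside 8.86% of all transcripts), none higher, and 82 did not pass, of which 67 had negative and 15 positive log2 differences. The median was -0.86, beside 0.004 for all transcripts tested. These transcripts are parts of 1 gene that was itself lower, so their number says little beyond the gene's own difference.

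The leading MYBPC1 transcript, TALONT000992199, matched slow-type isoform X10 of the Bos taurus annotation. It held 18.9%, 19.9% and 18.7% of the gene's yak reads but 11.6%, 6.86% and 10.9% in cattle-yak. Its level fell from 1032 ± 59.8 to 249 ± 71.2 CPM (mean ± SD, n = 3 libraries per group), a log2 difference of -2.05 ± 0.21 (SE; edgeR, adjusted p = 3.04e-05), beside -1.10 for the gene as a whole. Among transcripts of at least 1% of the gene, its change in share did not pass on its own (edgeR diffSpliceDGE, adjusted p = 0.0615).

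TALONT000992306, matched to Bos taurus isoform X2, held 6.48%, 7.47% and 8.61% in yak and 6.43%, 4.73% and 6.43% in cattle-yak, so that the lowest yak share lay just above the highest of cattle-yak. Its log2 difference was -1.44 ± 0.19 (SE; edgeR, adjusted p = 0.00024). The third, TALONT001111642, bears no symbol and the description of an uncharacterised red deer (Cervus elaphus) protein, LOC122680493. It held 6.43%, 3.91% and 4.85% in yak and 4.14%, 9.24% and 6.35% in cattle-yak, with cattle-yak 2 far above the rest.

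The level of TALONT001111642 did not pass (log2 difference -0.71 ± 0.26, SE; edgeR, adjusted p = 0.0846), but did without cattle-yak 2 (-1.02, adjusted p = 0.0131). The same description stood on 191 transcripts of 173 identifiers, and 52.5% of their 7581 reads lay in the MYBPC1 identifier. In all, 46 MYBPC1 transcripts with 7345 reads had no symbol, and they made up 15.8%, 9.03% and 9.99% of the gene's yak reads and 11.5%, 20.5% and 14.4% in cattle-yak. On the lines that bear the symbol alone, the log2 difference of MYBPC1 was -1.17 instead of -1.10.

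**Figure D2:**
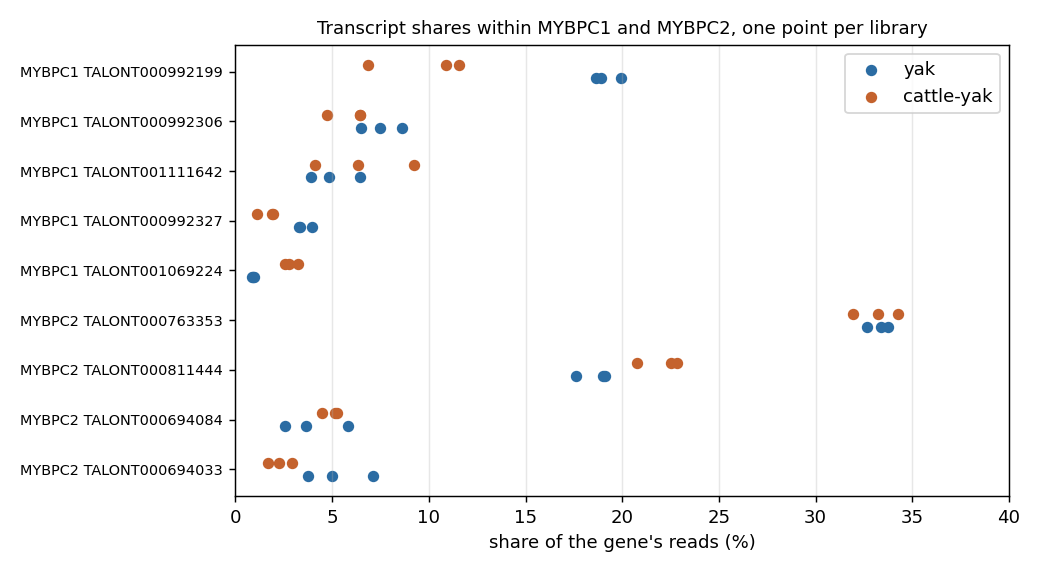
Share of the gene's reads (percent) held by 5 transcripts of MYBPC1 and 4 of MYBPC2; points are libraries, yak in blue and cattle-yak in orange. TALONT000992199 of MYBPC1 holds 18.7% to 19.9% in yak and 6.86% to 11.6% in cattle-yak, whereas TALONT000763353 of MYBPC2 holds 31.9% to 34.2% over all 6 libraries.

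Over these 3 transcripts the usage test called MYBPC1 by a narrow margin (edgeR diffSpliceDGE, adjusted p = 0.0475). The call was lost without yak 1 (0.0853), yak 2 (0.233), yak 3 (0.198), cattle-yak 2 (0.255) or cattle-yak 3 (0.113), and kept without cattle-yak 1 (0.0120). It was also lost when only lines with the symbol were used (0.249), a setting chosen after seeing the data. With transcripts of at least 1% of the gene, 17 of them entered and the adjusted p was 3.58e-08, in a test that called 15.2% of 1952 genes. At that limit with only lines bearing the symbol, also chosen after seeing the data, 14 entered (edgeR diffSpliceDGE, adjusted p = 1.58e-13).

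At that lower limit, over all lines of the gene, 2 MYBPC1 transcripts passed on their own. TALONT001069224, matched to Bos taurus isoform X4, held 0.870%, 0.910% and 0.972% of the gene's yak reads and 2.56%, 3.22% and 2.75% in cattle-yak, so its share rose while the gene fell (edgeR diffSpliceDGE, adjusted p = 3.62e-06). Its level was 49.4 ± 3.36 CPM in yak and 72.0 ± 8.20 CPM in cattle-yak (mean ± SD, n = 3 libraries per group), which did not pass as a change of level (log2 difference 0.54 ± 0.20, SE; edgeR, adjusted p = 0.0692) but passed with library size alone (0.0285) and among transcripts of at least 10 CPM (0.0477). TALONT000992327, matched to isoform X6 of the American bison, held 3.29%, 3.96% and 3.32% in yak and 1.91%, 1.12% and 1.93% in cattle-yak (usage adjusted p = 0.0487, and log2 difference of its level -2.17 ± 0.23, SE; edgeR, adjusted p = 4.83e-05). Both transcripts are named by that test and not by their share.

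Grouped by the protein model they matched, MYBPC1 transcripts of Bos taurus isoform X10 held 28.2% ± 1.39 of the gene's reads in yak and 18.1% ± 2.52 in cattle-yak (mean ± SD, n = 3 libraries per group). Those of Bos taurus isoforms X4 and X6 held 3.56% ± 0.48 and 3.51% ± 0.14 in yak and 6.61% ± 0.59 and 6.36% ± 0.76 in cattle-yak. With its leading transcript TALONT000992199 left out, the X10 model held 9.04% ± 0.73 in yak and 8.28% ± 0.05 in cattle-yak, so most of the difference lay in that 1 transcript. Another X10 transcript, TALONT001069246, held 2.0% ± 0.14 in yak and 3.12% ± 0.52 in cattle-yak. The X10 model of the Bos indicus x Bos taurus annotation was higher in cattle-yak (4.11% ± 0.11 and 6.88% ± 0.48), and the X6 model of the American bison was lower (4.55% ± 0.62 and 2.16% ± 0.62). Of 11 models with at least 1% of the gene's reads, 8 did not overlap between the groups in share, 6 of them higher and 2 lower in cattle-yak. These shares are parts of 1 whole, so a lower X10 share by itself raises the others. Read counts of the Bos taurus X4 model overlapped (395 to 508 per yak library, 414 to 455 per cattle-yak library). No count of this kind was made over all genes. The Bos mutus isoform X3 model held 19.9% ± 0.45 and 20.3% ± 1.20, and there the groups overlapped. Isoform numbers of different species' annotations are not the same forms.

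The species in a description is that of the best-matching protein and does not tell yak from cattle alleles. Models of Bos taurus took 49.9% ± 1.93 of MYBPC1 reads in the yak libraries and 43.0% ± 3.50 in the cattle-yak libraries (mean ± SD, n = 3 libraries per group). For MYBPC2 they took 71.7% ± 3.71 in yak and 77.6% ± 2.45 in cattle-yak.

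The leading MYBPC2 transcript held about the same share in every library. The identifier, ENSBGRG00000018208, held 654 transcripts and 67972 reads, and TALONT000763353, matched to fast-type isoform X2 of Bos taurus, held 32.7%, 33.4% and 33.8% of them in yak and 31.9%, 33.2% and 34.2% in cattle-yak. TALONT000811444, matched to the same model, held 17.6%, 19.0% and 19.1% in yak and 20.8%, 22.9% and 22.5% in cattle-yak, every cattle-yak library being above every yak library. Neither passed as a change of level (log2 differences -0.36 ± 0.17 and -0.11 ± 0.16, SE; edgeR, adjusted p = 0.155 and 0.697), and the second was 0.0153 with library size alone.

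TALONT000694033, matched to fast-type isoform X2 of the Bos indicus x Bos taurus annotation, held 7.12%, 3.73% and 4.99% of yak MYBPC2 reads and 2.90%, 1.67% and 2.25% in cattle-yak. Its level fell from 281 ± 134 to 92.8 ± 29.8 CPM (mean ± SD, n = 3 libraries per group; log2 difference -1.60 ± 0.37, SE; edgeR, adjusted p = 0.0218). The call was lost without cattle-yak 2 (0.0606) or cattle-yak 3 (0.0865). Of 66 tested MYBPC2 transcripts, with 91.9% of the reads, 9 were called lower, none higher, and 57 did not pass, with a median log2 difference of -0.30. Of all transcripts tested 18.5% were called, 8.86% lower and 9.63% higher. The 66 are parts of 1 gene, so their count says little beyond that gene's own difference. The usage test over 2 transcripts did not pass (edgeR diffSpliceDGE, adjusted p = 0.605), and it passed over the 11 transcripts of at least 1% (0.0101), where TALONT000694033 was the transcript called (0.00401). TALONT000694084, with a mean share under 5% in both groups, held 5.83%, 3.67% and 2.59% in yak and 4.50%, 5.13% and 5.27% in cattle-yak, and there the groups overlapped.

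**Figure D3:**
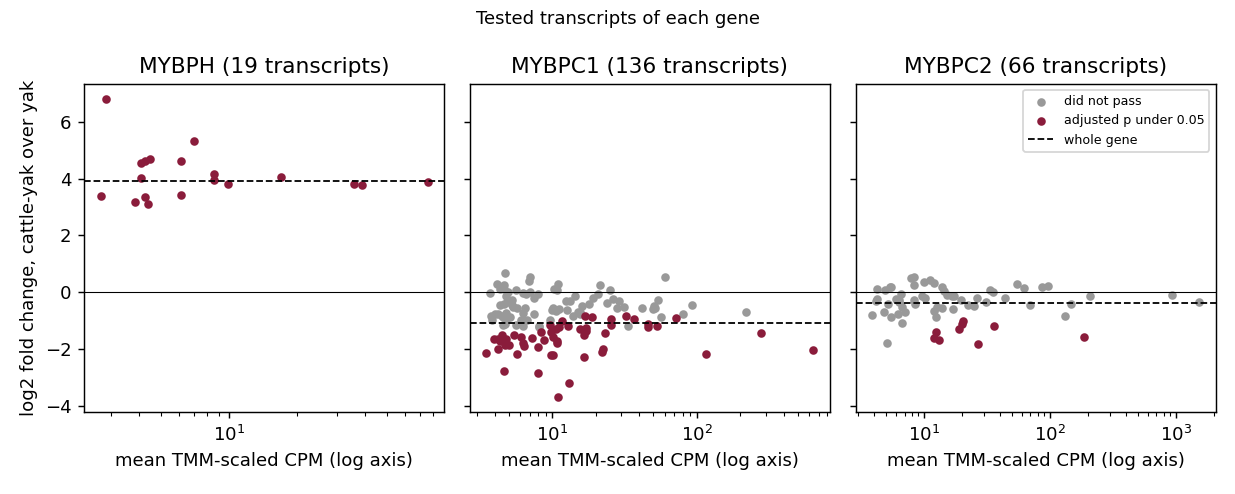
Log2 difference (cattle-yak over yak) of every tested transcript of the 3 genes against its mean TMM-scaled CPM (log axis); points are transcripts, dark red where edgeR called them and grey where not, and dashed lines mark the whole gene. MYBPH transcripts lie from 3.13 to 6.83, MYBPC1 transcripts from -3.71 to 0.67 and MYBPC2 transcripts from -1.84 to 0.54.

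Among 27 thick filament and M-band genes, chosen with earlier results known, 23 were tested, of which 5 were called higher, 4 lower and 14 did not pass, beside 6.45% higher and 6.18% lower among all genes. Their median log2 difference was 0.158, beside 0.024 for all genes. SMYD1, a methyltransferase needed for thick filament assembly, fell from 125 ± 7.31 to 33.2 ± 5.11 CPM (mean ± SD, n = 3 libraries per group; log2 difference -1.91 ± 0.18, SE; edgeR, adjusted p = 3.72e-05). FHL1, a LIM protein that binds myosin-binding protein C, fell from 5237 ± 92.5 to 2347 ± 182 CPM (-1.16 ± 0.15). TRIM63, the ubiquitin ligase MuRF1 of the M-band, rose from 113 ± 46.1 to 388 ± 69.2 CPM (1.78 ± 0.29), and the light chain MYL6B rose from 619 ± 110 to 1391 ± 264 CPM (1.17 ± 0.19). These 4 kept their calls without any 1 library.

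The M-band protein MYOM3 rose (1.55 ± 0.41 on the log2 scale, SE) and UNC45B, a myosin chaperone, fell (-1.09 ± 0.25). The call of MYOM3 was lost without yak 1 (edgeR, adjusted p = 0.113), yak 2 (0.138), cattle-yak 1 (0.0517) or cattle-yak 2 (0.0663), and that of UNC45B without yak 2 (0.0584), yak 3 (0.0512) or cattle-yak 2 (0.0792). TTN, the titin to which myosin-binding proteins attach, was called higher (0.64 ± 0.17), but in only 1 of the 6 fits that left out a library, the one without cattle-yak 3 (adjusted p of at most 0.132, reached without yak 3). TRIM54 (0.72) and MYH2 (-0.66), the remaining calls, were each lost without yak 2 (0.0738 and 0.0697).

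**Figure D4:**
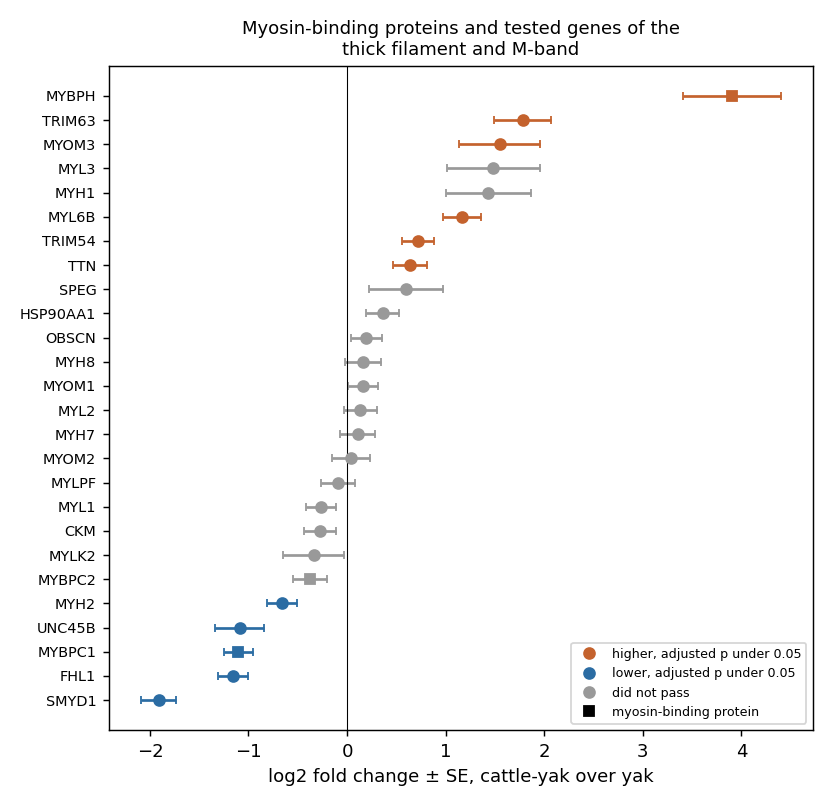
Log2 difference (cattle-yak over yak) with its SE for the 3 myosin-binding proteins (squares) and the tested thick filament and M-band genes (circles); orange marks genes called higher by edgeR over all genes, blue those called lower and grey the rest. MYBPH stands at 3.90, TRIM63 at 1.78, MYBPC1 at -1.10 and SMYD1 at -1.91.

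Slow and fast fibre genes were set beside the slow-type and fast-type C genes. Of 10 tested slow fibre genes 2 were called higher, MYL6B and MYOZ2 (log2 difference 0.80 ± 0.19, SE), and none lower, with a median of 0.120. The slow myosin MYH7, whose name rests on 44.3% of the reads of its identifier, stood at 3051 ± 593 CPM in yak and 3285 ± 411 CPM in cattle-yak (mean ± SD, n = 3 libraries per group; edgeR, adjusted p = 0.744). Of 11 tested fast fibre genes none was called higher and 3 lower, with a median of -0.213: CASQ1, the calcium store protein (-1.05 ± 0.19), the calcium pump ATP2A1 (-0.69 ± 0.20) and MYH2, also on the list above. The fast myosin MYH1, 1 of the 8 fast fibre genes that did not pass, was higher in every cattle-yak library than in any yak library. It stood at 1009 ± 647 CPM in yak and 2719 ± 405 CPM in cattle-yak (log2 difference 1.43 ± 0.43, SE; edgeR, adjusted p = 0.0825). Among all genes 6.45% were called higher and 6.18% lower. MYOZ2 lost its call without yak 1 (0.0604) or yak 2 (0.0774), and ATP2A1 without yak 1 (0.132), yak 3 (0.0732) or cattle-yak 2 (0.0996) and with library size alone (0.0816).

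Of 19 genes of developing, regenerating or denervated fibres, 13 were matched and 7 tested, with a median log2 difference of 0.178. Of these 7, 1 was called higher, beside 6.45% of all genes. GADD45A, a growth-arrest gene, was called higher (6.35 ± 2.69 and 17.1 ± 6.43 CPM, mean ± SD, n = 3 libraries per group; log2 difference 1.41 ± 0.37, SE), and the call was lost without yak 1 (edgeR, adjusted p = 0.0915), yak 3 (0.0966) or cattle-yak 1 (0.0776). The muscle regulator MYOG had a log2 difference of -0.04 ± 0.30 (SE; adjusted p = 0.957). The embryonic myosin MYH3 had 3 reads over the yak libraries and 15 over the cattle-yak libraries.

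Markers of other cell types were present at low levels. Of 5 tested fibroblast genes, LUM, COL3A1 and COL1A2 were called lower. The other 2, DCN (log2 difference 0.06 ± 0.23, SE; edgeR, adjusted p = 0.891) and COL1A1 (-0.54 ± 0.42; 0.456), did not pass. Among all genes tested, 6.45% were called higher and 6.18% lower. The summed level of the 6 fibroblast genes listed was 399.6 to 526.6 CPM in yak and 239.6 to 456.0 CPM in cattle-yak. Of 2 tested Schwann cell genes PMP22 was called higher (51.1 ± 14.4 CPM in yak, 183 ± 40.7 CPM in cattle-yak), and the sum of the 4 listed was 44.4 to 71.5 CPM in yak and 166 to 260 CPM in cattle-yak. The sum of 5 macrophage genes was 4.0 to 21.6 CPM in yak and 16.4 to 59.6 CPM in cattle-yak, with none of 2 called. The sum of 5 endothelial genes was 22.8 to 29.8 CPM in yak and 31.1 to 63.4 CPM in cattle-yak, with no overlap of the groups, although neither of the 2 tested was called, and VWF, with too few reads to be tested, had 6 reads over the yak libraries and 53 over the cattle-yak libraries. The sums of 4 smooth muscle genes (113 to 136 CPM for yak, 118 to 181 CPM for cattle-yak) and of the adipocyte genes (13.6 to 19.5 and 2.10 to 18.6 CPM) overlapped, with none of 4 and of 1 tested called. The part of these in the difference of MYBPH or MYBPC1 was not tested.

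Over the 6 libraries the genes most like MYBPH in log2 CPM, among 3628 genes of at least 10 CPM with a symbol, were ZNF830 (Pearson r = 0.994), MSRA, a methionine sulfoxide reductase (0.994), and CD2BP2 (0.992), and the most opposite was HTRA1 (-0.989). MSRA stood at 3.46 ± 2.24 CPM in yak and 38.1 ± 4.42 CPM in cattle-yak (mean ± SD, n = 3 libraries per group; log2 difference 3.44 ± 0.35, SE; edgeR, adjusted p = 6.05e-05). For MYBPC1 these were DCTN2 (0.995), POLB (0.995) and AKAP6, an anchor of protein kinase A (0.989), with the Z-disc protein TCAP at the other end (-0.996). TCAP rose from 3446 ± 38.1 to 6488 ± 444 CPM (log2 difference 0.91 ± 0.15, SE; edgeR, adjusted p = 0.00158), while DCTN2 and POLB, with log2 differences of -0.27 and -0.38, did not pass. For MYBPC2 they were IDH1 (0.987), MPLKIP (0.986) and DPF2 (0.984), with NKAP at the other end (-0.982), and none of these 4 passed. Each r is a description over 6 points that share their libraries and fall into 2 groups.

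The neighbours of the genes on the chromosome, named from RefSeq's table of the yak assembly Bosgru_T2T1.0, had few reads. CHI3L1, near MYBPH, had 32 reads, 30 of them in cattle-yak 2, and ADORA1 on the other side had none. CHPT1, beside MYBPC1, had 259 reads and a log2 difference of 0.04 (edgeR, adjusted p = 0.953). Around MYBPC2, SPIB had 25 reads, EMC10 had 3 and GARIN5A had none.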

How the data were processed

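The deposited table, made by the authors, gives whole-number counts of reads for each transcript in 6 nanopore cDNA-PCR libraries (kit SQK-PCS109, 1 µg of TRIzol-extracted RNA, per the labels' protocols), and CPM, which the authors scaled so that each value was the count over its library total to within 0.005. Per the submitters' processing notes, fastp, minimap2 and GSNAP were used. The sources used here do not give the genome build or the counting software. The table held 179856 transcripts. The 132 lines without values and the 61 transcripts without a gene (at most 0.00249% of a library's reads) were left out.

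Counts were summed by gene and tested, as were transcripts, by the robust quasi-likelihood test of edgeR 4.0.16 (R 4.3.3) after filterByExpr and TMM scaling, with Benjamini-Hochberg adjusted p over all features and a threshold of 0.05. Transcript usage was tested with diffSpliceDGE on transcripts with at least 5% of a gene's reads over all libraries, in genes with 2 or more of them. CPM in the text is TMM-scaled, except the sums over marker lists, which use the library total. The SE of a log2 difference was derived from its size and the F statistic. On simulated counts with 1 common dispersion, with changes placed in features of at least 10 CPM, the gene test (7192 genes) found 55% of changes of 1 log2 unit and 99% of changes of 2 log2 units, and 6.67% of its calls were false. The transcript test (14592 transcripts) found 24% and 93%, and 6.4% of its calls were false. For the usage test (1700 genes), the main transcript lost 2 log2 units and the next one gained the lost reads. The genes changed were picked to have 2 or more transcripts with at least 10% of their reads. The test found 94% of them, and 14.5% of its calls were false, more than the nominal 5%. Changes spread over many small transcripts, as MYBPC1 has, were not simulated.

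Text names the 3 members, their transcripts with at least 5% of reads, up to 6 called genes of each list, the 3 most alike genes and 1 most opposite gene for each member, and the nearest RefSeq genes. TTN, TRIM54, VWF, MYH1, DCN, COL1A1 and other transcripts were named after their values were seen. A list gene is the identifier with most reads in which its symbol is the commonest. The members and lists were chosen with earlier results of these data known. Since PCR copies carried no molecular identifiers, limits set by 0 reads cover only counting error. Alternatives were DESeq2 1.42.0, limma-voom (limma 3.58.1), leaving out each library, a replicate block, and other scalings and filters. Tables and figures used Python 3.11.15, pandas 2.3.3 and matplotlib 3.10.9.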

Additional observations from a re-analysis of the deposited data

How the results depend on the processing

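MYBPH stayed called higher, MYBPC1 called lower and MYBPC2 below the threshold under every alternative run. Without each library in turn the log2 difference of MYBPH was 3.52 to 4.45 (edgeR adjusted p at most 0.0392), that of MYBPC1 -1.16 to -1.07, that of MYBPC2 -0.50 to -0.28 (adjusted p 0.101 to 0.418), and the share of MYBPC1 differed by -17.4 to -12.9 points. Fits without 1 library called 544 to 987 genes (616 without yak 2 and 544 without yak 3, against 948), 2053 to 3004 transcripts (against 2922) and 70 to 145 genes for usage (76, 91 and 70 without yak 1, 2 and 3 and 71 without cattle-yak 2, against 151). A filter of 10 CPM called 1654 transcripts. Usage called 81 genes at 10% of reads, where MYBPC1 had too few transcripts to be tested, 297 at 1% and 58 by the Simes method. The cause of these differences was not tested.

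The usage of MYBPC1 (adjusted p 0.0475) was not called by the Simes method (0.164), with only symbol-bearing lines (0.249, chosen after seeing the data) or in 5 of 6 fits without 1 library (0.0120 to 0.255 over all 6). At 1% of reads it was called, with an adjusted p of 3.58e-08 by diffSpliceDGE, and 1.58e-13 with only symbol-bearing lines. The usage of MYBPC2 was called at 1% of reads (0.0101, and 0.010 with only symbol-bearing lines). Of 430 values of named genes and transcripts under alternatives, 382 kept their direction and side of the threshold, 41 lost a call and 3 gained one; 12 of 29 called names lost the call at least once. The other 4 changed sign, all of uncalled names near 0: the second MYBPC2 identifier (0.04) was -0.0703 with no filter and -0.0436 to 0.0887 without 1 library (negative without yak 3 or cattle-yak 1), and TALONT000811444 (-0.11) was 0.0153 with library size alone. A fit on reference transcripts was not possible for the members, since MYBPH had 1 with 4 reads and the C genes none.

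Same-numbered libraries did not deviate together (correlations -0.036, 0.001 and 0.038), so the numbers do not pair them. With the replicate block, 890 genes were called, MYBPH had a log2 difference of 3.98 (adjusted p 0.0236), MYBPC1 -1.10 and MYBPC2 -0.38, the usage call of MYBPC1 was lost (0.147), and the call of MYOM3 was lost (0.0718). Not every library correlated best with its own number. Depth limits the shares of MYBPH transcripts in yak, which rest on 244 reads.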

Other observations

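Transcripts with at least 20 reads and none in one group were rare in these genes, and both were chosen after their values were seen. TALONT000356308 of MYBPH had 12, 12 and 21 reads in the cattle-yak libraries, 1.07% of the gene's 4196 reads there, and none among 244 yak reads. A count of 0 in 244 allows a share of up to 1.23%, so a difference in share was not detectable at this depth. TALONT000812112 of MYBPC2 had 7, 7 and 18 reads in cattle-yak, 0.10% of 31870 reads, and none among 36102 yak reads, which allows a share of up to 0.00831%.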
